A study of Mus musculus with 11 samples.

Results

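The replication-dependent core histone genes encode the H2A, H2B, H3 and H4 proteins that package newly copied DNA. Members were the rows of the testis count files whose Ensembl ID carries an older symbol beginning with Hist1h2, Hist1h3, Hist1h4, Hist2h, Hist3h or Hist4h, or the current H2ac, H2bc, H3c or H4c. Hist1h2ba (H2bc1) was left out. This gave 46 genes of the 22259 in each file, of which 16 encode H2A, 12 H2B, 6 H3 and 12 H4. By cluster, 36 were Hist1, 8 Hist2 and 2 Hist3 genes. A further 17 member symbols of the name table have no row under the table's ID and were not analysed here.

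RNA was sequenced from untreated testes of 3 Ccer1-/- and 3 Ccer1+/+ (labelled WT) adult mice, described as independent samples. Ccer1-/- mice carry frameshift deletions made with Cas9 and a pair of guides, and of several such lines the study took 1 forward for its further analysis, without naming the line at the RNA sequencing itself. Library totals were 15970289 to 16552947 counts for Ccer1-/- and 16259579 to 19621550 counts for Ccer1+/+. Levels are given as CPM, counts brought to one library size by TMM scaling. Ccer1 (chr10:97693059-97694926, GRCm38), the targeted gene, had 82.1, 92.9 and 88.2 CPM in Ccer1-/- replicates 1, 2 and 3, against 438, 609 and 529 CPM in Ccer1+/+ replicates 1, 2 and 3. Ccer1+/+ replicate 1 stood apart from the other Ccer1+/+ libraries, with a mean Pearson correlation over genes of 0.991 with the Ccer1-/- libraries and 0.972 with Ccer1+/+ replicates 2 and 3. Results that rest on it are therefore given with and without it. It was singled out from these same data, so p-values and intervals without it leave out part of the Ccer1+/+ spread.

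Histone genes of this kind are copied in S phase, and in the testis the cells that replicate DNA are spermatogonia and preleptotene spermatocytes. Their messages usually end in a short stem-loop, bound by SLBP and cut with the help of the U7 small nuclear RNA, in place of a poly(A) tail. Some clustered histone genes can also be read through to a downstream signal and polyadenylated. Libraries made by oligo(dT) selection, as here, capture tailed messages, so a level in these files is not a measure of the whole histone mRNA pool.

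The 3' ends that the annotation gives were read from GENCODE M1 transcripts, matched by gene ID, for 45 of the 46 members. The remaining one, Hist2h3c2, has no protein-coding transcript there. A histone stem-loop was found in 26 of the 45, against 0.0758% of 55443 protein-coding transcripts. A member was counted if any of its transcripts had it, while the share is over single transcripts, the members' own included. The stem-loops of a leading H2A gene, the leading H2B gene, the leading H3 gene and an H4 gene are shown here as examples. Their annotated transcripts run 37 to 68 bases beyond the stem-loop. Each is given as a window of 26 bases with the stem-loop in capitals.
Hist2h2aa1: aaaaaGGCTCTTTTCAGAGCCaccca
Hist1h2bp, first transcript: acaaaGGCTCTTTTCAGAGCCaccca
Hist1h3a: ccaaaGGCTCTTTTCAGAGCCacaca
Hist1h4h: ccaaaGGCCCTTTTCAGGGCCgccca
The H2A, H2B and H3 windows have the same 16-base stem-loop, and that of Hist1h4h differs from it.

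A poly(A) signal hexamer (AATAAA or ATTAAA, on the transcript strand) within the last 40 bases was present in 14 of the 45 members, against 50.2% of all protein-coding transcripts. Members and transcripts were counted as for the stem-loop. Windows around the hexamer, in capitals, are shown for 4 of the more abundant genes.
Hist1h2bp, second transcript: acattataaaAATAAAggtttcaatc
Hist1h4a: aaattgagtaAATAAAccttgagtgc
Hist1h2bc: atgtatatatAATAAAtgtcatgtaa
Hist2h2be: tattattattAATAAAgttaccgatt
The transcript of Hist1h4h carries its stem-loop and, beyond it, a hexamer that starts 32 bases before the end. Hist1h2bp has both kinds of end, in separate transcripts. Its first transcript is a single exon with the stem-loop, and its second is spliced over 2 exons, lacks the stem-loop and ends 23 bases after the start of a hexamer. Hist1h2bc is likewise annotated with 2 exons and no stem-loop, and Hist2h2be has 1 exon whose 3' untranslated part is 2192 bases long, with the hexamer near its end.

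**Figure D1:**
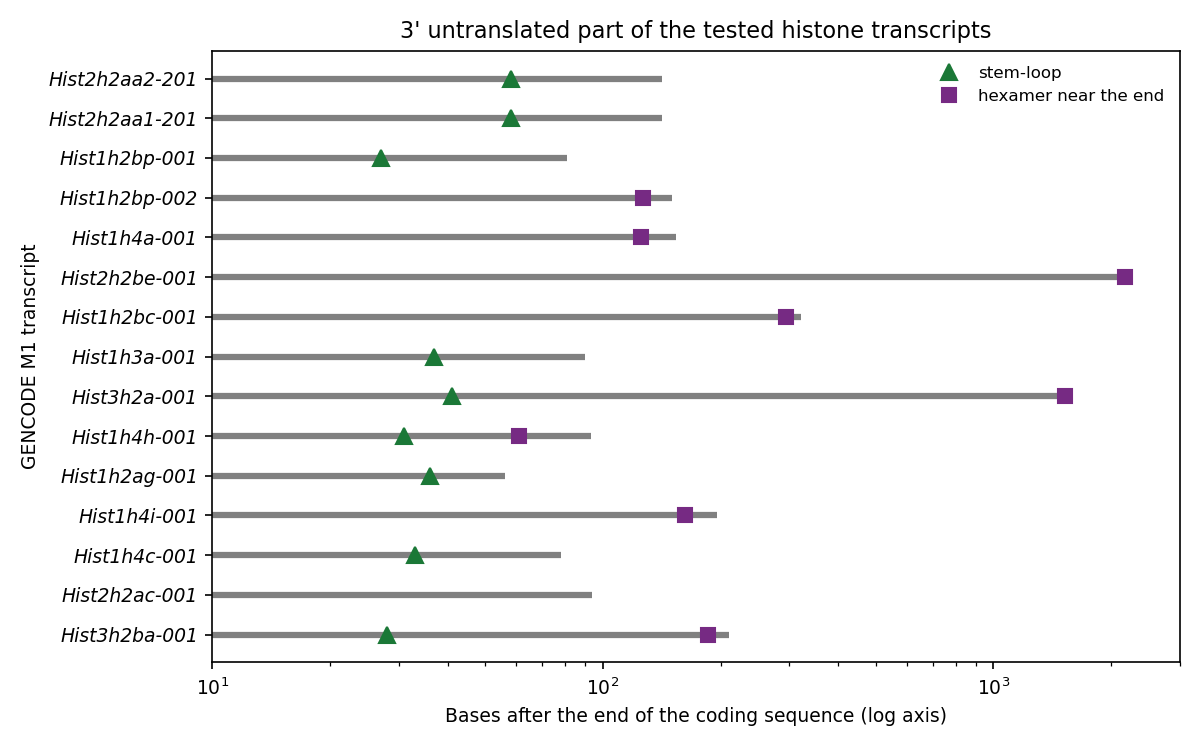
Annotated 3' untranslated part of the tested members, as bases after the end of the coding sequence (log axis), with GENCODE M1 transcripts ordered by level from the top. Triangles mark the start of a stem-loop and squares that of a poly(A) signal hexamer in the last 40 bases. The Hist2h2aa pair has the stem-loop 58 bases after the coding sequence and no hexamer, and Hist1h4a, Hist1h2bc and Hist2h2be have a hexamer and no stem-loop.

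Most members were at or near the floor of detection. Of the 46, 15 passed the filter on low counts and were tested, and 31 did not. The tested genes were 5 of the H2A, 4 of the H2B, 2 of the H3 and 4 of the H4 genes. All members together took 0.0424% to 0.0441% of the counts in Ccer1-/- libraries and 0.0405% to 0.0710% in Ccer1+/+ libraries. One gene, Hist1h2af, had 0 counts in all 6 libraries, which allows up to 0.0295 CPM over them, counting error only. Another 25 members had a count in some libraries and not in others.

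Compared per kilobase of exon, 6 members lay above 10 CPM per kb, 10 between 1 and 10, and 30 below 1. Hist2h2aa2 stood at 440 CPM per kb and Hist2h2aa1 at 214, both of which encode H2A. The H2B gene Hist1h2bp was at 69.1, the H4 gene Hist1h4a at 37.8, the H2B gene Hist1h2bc at 16.1 and the H3 gene Hist1h3a at 10.9 CPM per kb. Members with an annotated hexamer near the end had a median of 1.24 CPM per kb and 8 of 14 passed the filter, against 0.173 CPM per kb and 6 of 31 among members without one. Among the latter, the annotated transcripts of Hist1h2aa, Hist1h2an, Hist1h4k and Hist2h2ab stop at the end of the coding sequence. A hexamer or stem-loop beyond an annotated end could not be seen, so absence means only that none was annotated. The pair at the top has no such hexamer in its annotated transcript, so the order of levels did not follow this feature throughout.

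Hist2h2aa1 (H2ac18, chr3:96245497-96246052) and Hist2h2aa2 (H2ac19, chr3:96239779-96240374) have annotated transcripts that are identical over all 578 bases. Reads cannot tell them apart, and their deposited counts are fractional. Hist2h2aa2 was given 67.2% to 70.7% of the pair's counts in Ccer1-/- libraries and 65.5% to 67.4% in Ccer1+/+ libraries. Together they made up 72.5% to 73.5% of the members' counts in Ccer1-/- libraries and 71.1% to 80.8% in Ccer1+/+ libraries. The pair is therefore best read as a sum.

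A promoter of the pair is shown because the pair made up most of the members' counts. Since reads cannot tell these genes apart, their counts cannot show whether both change together. The window of Hist2h2aa1 is taken from RefSeq (chr3:96245247-96245546, plus strand, GRCm38.p6), from 250 bases before to 50 after the annotated start, with CCAAT and TATAAA, on either strand, in capitals.
Hist2h2aa1 promoter: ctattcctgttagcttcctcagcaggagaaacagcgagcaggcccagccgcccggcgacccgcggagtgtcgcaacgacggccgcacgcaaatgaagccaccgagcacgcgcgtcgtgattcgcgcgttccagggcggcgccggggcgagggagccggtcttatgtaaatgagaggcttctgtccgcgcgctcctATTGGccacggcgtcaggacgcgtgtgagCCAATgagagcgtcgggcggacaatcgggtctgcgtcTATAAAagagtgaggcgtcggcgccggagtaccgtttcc
A stretch of 219 bases of it is found unchanged in the window of Hist2h2aa2, in which the annotated start lies further upstream. CCAAT or its complement was present in 34 of the 42 members with a RefSeq promoter, against 37.4% of 32851 promoter windows of the same length. TATAAA was present in 26 of 42, against 13.6%, and the octamer ATGCAAAT, the sequence bound by OCT1 in H2B promoters, in 10 of 42, against 1.74%. Windows with the octamer belonged to H2A as well as H2B genes. Some neighbours on opposite strands, such as Hist1h2ae and Hist1h2bg, have overlapping windows, so not all matches are separate. Such matches are letters in a window and were not tested for binding.

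Hist2h2aa2 had 205, 210 and 221 CPM in Ccer1-/- replicates 1, 2 and 3, against 190, 377 and 322 CPM in Ccer1+/+ replicates 1, 2 and 3. Hist2h2aa1 had 100, 103 and 91.3 CPM in Ccer1-/- replicates, against 91.7, 199 and 159 CPM in Ccer1+/+ replicates. In both genes Ccer1+/+ replicates 2 and 3 were above every Ccer1-/- library, and Ccer1+/+ replicate 1 was at or below the lower end of the Ccer1-/- values, so the genotypes overlapped.

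The log2 fold change, Ccer1-/- over Ccer1+/+, was -0.48 ± 0.22 (SE, n = 3 each) for Hist2h2aa2 and -0.61 ± 0.25 for Hist2h2aa1. Neither passed the test, with an adjusted p of 0.786 for both by edgeR's quasi-likelihood test over all genes tested. With the counts of the pair added before the fit, the change was -0.52 ± 0.23 (95% interval -1.04 to -0.01, adjusted p = 0.786, edgeR). Without Ccer1+/+ replicate 1 the added pair was lower in Ccer1-/- by a log2 fold change of -0.85 ± 0.09 (95% interval -1.05 to -0.65, adjusted p = 0.00285, edgeR). This fit drops the Ccer1+/+ library that lay with the Ccer1-/- values in this pair, so it is not an independent test. Without that replicate and with the pair kept apart, 12.5% of all genes tested were called lower in Ccer1-/- and 9.21% higher. The members called were Hist2h2aa2 and Hist2h2aa1, both lower, 2 of 17 tested. Reads cannot tell these 2 apart, so they are not separate results.

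**Figure D2:**
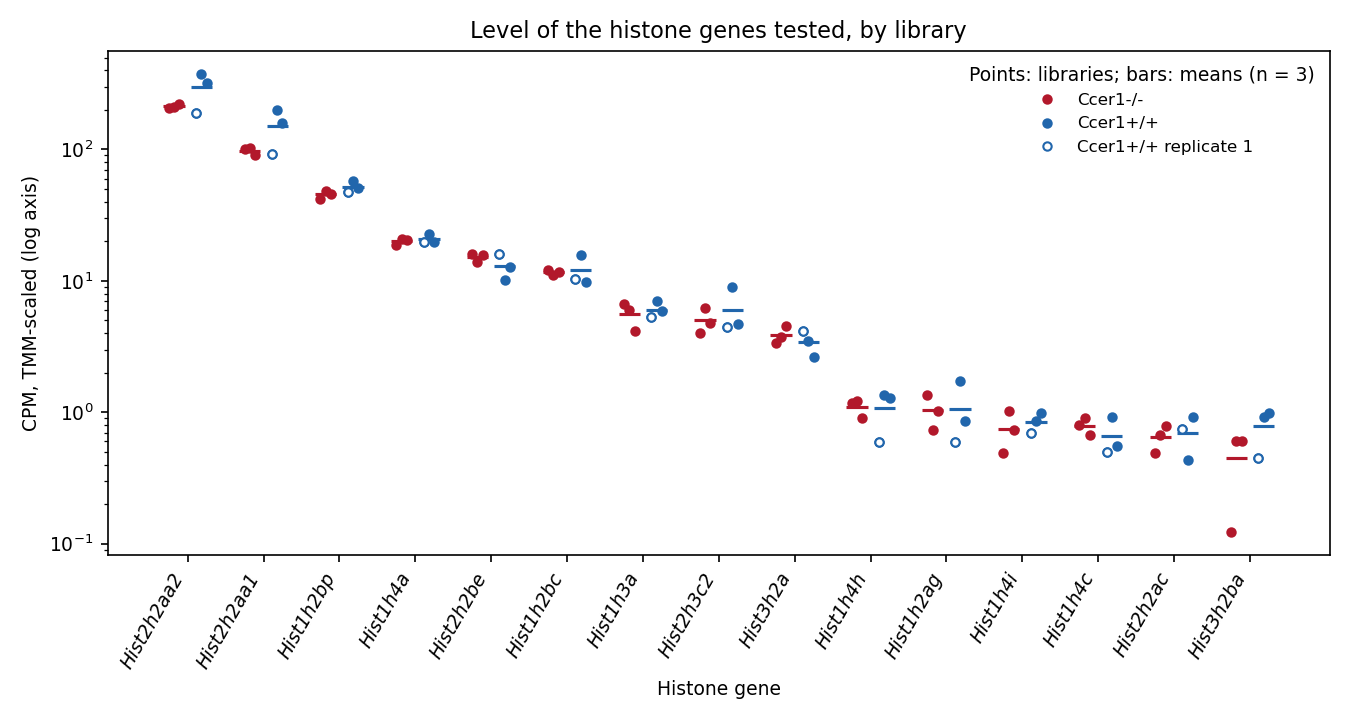
CPM (log axis) of the 15 tested members in each library, Ccer1-/- left of Ccer1+/+, with horizontal bars for the means of 3 libraries and an open circle for Ccer1+/+ replicate 1. In Hist2h2aa2 and Hist2h2aa1 the open circle lies with the Ccer1-/- points, below the other Ccer1+/+ points, and the remaining genes overlap between genotypes.

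Across the 15 tested members none was called at an adjusted p under 0.05, against 1 gene of 15139, Ccer1, which is 0.00661%. DESeq2 called none of the members either. At an unadjusted p under 0.05, edgeR gave 1 member, Hist2h2aa1, lower in Ccer1-/-, where 1.27% of all genes tested were lower and 1.62% higher. DESeq2 gave Hist2h2aa1 and Hist2h2aa2, which are not separate results, and its share over all genes was not worked out. None of the 15 separated the genotypes without overlap, where 5.2% of all genes tested were higher in every Ccer1-/- library and 3.14% lower. Log2 fold changes were negative for 11 and positive for 4 members. Their median was -0.11, beside 0.04 over all genes tested, and -0.05 for the 13 members other than the pair. Without Ccer1+/+ replicate 1 the median of the 17 members then tested, Hist1h2aa among them, was -0.34.

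Among the other H2A genes, Hist3h2a (H2aw, chr11:58954685-58955192) had 3.38, 3.76 and 4.55 CPM in Ccer1-/- and 4.19, 3.46 and 2.63 CPM in Ccer1+/+ libraries. Hist1h2ag (H2ac11) had 1.35, 0.728 and 1.03 CPM in Ccer1-/- and 0.598, 1.73 and 0.857 CPM in Ccer1+/+ libraries. Hist2h2ac (H2ac20) had 0.491, 0.667 and 0.789 CPM in Ccer1-/- and 0.748, 0.432 and 0.918 CPM in Ccer1+/+ libraries. All 3 overlapped between genotypes, and their fold changes of 0.18 ± 0.26, -0.02 ± 0.48 and -0.11 ± 0.44 (log2, SE) were smaller than their errors. The transcript of Hist3h2a carries a stem-loop and runs 1487 bases beyond it to its end, with a hexamer near that end.

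H2B forms a dimer with H2A in the nucleosome. Its leading gene, Hist1h2bp (H2bc22, chr13:21787483-21801561), had 42.1, 48.5 and 45.9 CPM in Ccer1-/- libraries, against 47.6, 57.4 and 50.9 CPM in Ccer1+/+ libraries. Only Ccer1-/- replicate 2 lay above the lowest Ccer1+/+ value, and the log2 fold change of -0.19 ± 0.14 (95% interval -0.50 to 0.12) did not pass the test (adjusted p = 0.786, edgeR). Without Ccer1+/+ replicate 1 it was -0.32 ± 0.10, with an adjusted p of 0.0653 by edgeR.

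Hist2h2be (H2bc21, chr3:96221072-96223738) had 15.97, 13.95 and 15.7 CPM in Ccer1-/- libraries, against 16.1, 10.1 and 12.8 CPM in Ccer1+/+ libraries. Its values ran the other way from those of the H2A pair, with Ccer1+/+ replicate 1 again beside the Ccer1-/- libraries, here at the high end. The log2 fold change was 0.22 ± 0.20 (95% interval -0.24 to 0.69, adjusted p = 0.790, edgeR). It was 0.0249 without Ccer1+/+ replicate 2 and 0.34 without Ccer1+/+ replicate 1, not called in either. Hist1h2bc (H2bc4, chr13:23684199-23692480) had 12.0, 11.2 and 11.7 CPM in Ccer1-/- libraries, against 10.4, 15.8 and 9.85 CPM in Ccer1+/+ libraries, and Ccer1+/+ replicate 2 alone lay above the rest. Hist3h2ba (H2bu2) was low, with 0.123, 0.607 and 0.607 CPM in Ccer1-/- and 0.449, 0.926 and 0.979 CPM in Ccer1+/+ libraries, and its log2 fold change of -0.79 ± 0.60 had a 95% interval of -2.14 to 0.57. That change was -0.41 without Ccer1-/- replicate 1 and -1.15 without Ccer1+/+ replicate 1.

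Of the H3 genes, which encode the replicative form of the histone most often modified on its tail, 2 of 6 were tested. Hist1h3a (H3c1, chr13:23761885-23762386) had 6.63, 6.01 and 4.19 CPM in Ccer1-/- libraries, against 5.28, 6.98 and 5.87 CPM in Ccer1+/+ libraries. Its log2 fold change was -0.11 ± 0.24 (95% interval -0.66 to 0.45). Hist2h3c2 (H3c15, chr3:96238479-96239127) had 3.99, 6.25 and 4.79 CPM in Ccer1-/- libraries, against 4.44, 8.96 and 4.71 CPM in Ccer1+/+ libraries, with Ccer1+/+ replicate 2 above the other 5.

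Hist2h3b (H3c13, chr3:96268654-96269155) did not pass the filter and had the most uneven counts of the untested members named here. It was listed at 0, 0 and 0 counts in Ccer1-/- libraries, against 6.87, 12.12 and 6.19 counts in Ccer1+/+ libraries, so the genotypes did not overlap. With 3 counts over the Ccer1-/- group as the limit that 0 allows, that limit lay 7.86-fold below the Ccer1+/+ level. The counting error of the Ccer1+/+ counts is not included, so 7.86-fold is not a lower bound. The counts are fractional. The sequence of Hist2h3b was not compared with those of other H3 genes, and how any reads were shared with them was not tested. Added to Hist2h3c2, it came to 3.99, 6.25 and 4.79 CPM in Ccer1-/- and 4.79, 9.70 and 5.08 CPM in Ccer1+/+ libraries, and the sum changed by a log2 fold change of -0.38 ± 0.32 (95% interval -1.11 to 0.36, adjusted p = 0.786, edgeR). The sum overlapped between genotypes.

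H4 pairs with H3 in the core of the nucleosome. Hist1h4a (H4c1, chr13:23760795-23761249) had 18.9, 20.8 and 20.5 CPM in Ccer1-/- libraries, against 19.7, 22.5 and 19.8 CPM in Ccer1+/+ libraries. All 6 values lay between 18.9 and 22.5 CPM, with a log2 fold change of -0.05 ± 0.15 and a 95% interval of -0.39 to 0.30. Hist1h4h (H4c8) had 1.17, 1.21 and 0.910 CPM in Ccer1-/- and 0.598, 1.36 and 1.28 CPM in Ccer1+/+ libraries. Hist1h4c (H4c3) had 0.799, 0.910 and 0.667 CPM in Ccer1-/- and 0.499, 0.926 and 0.551 CPM in Ccer1+/+ libraries. Both overlapped between genotypes, and Ccer1+/+ replicate 1 was the lowest of the 6 in each.

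**Figure D3:**
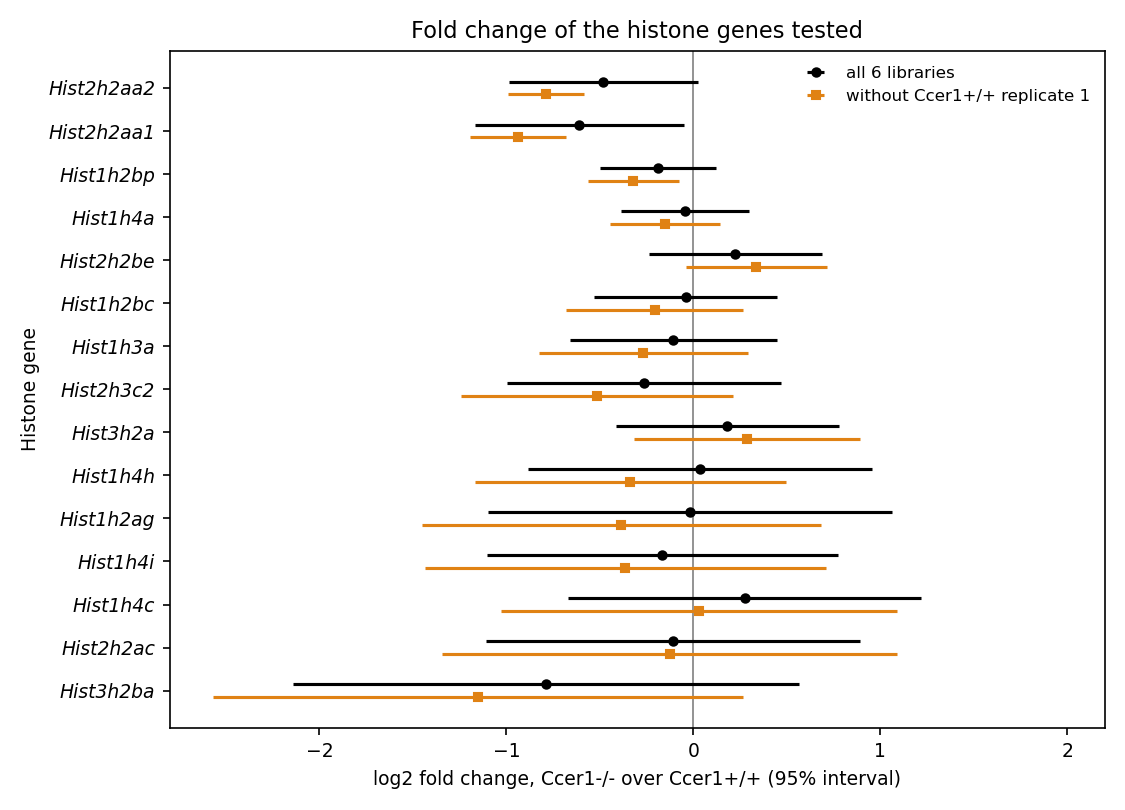
Log2 fold change, Ccer1-/- over Ccer1+/+, of the 15 tested members with 95% intervals from edgeR, from all 6 libraries (circles) and without Ccer1+/+ replicate 1 (squares), ordered by level from the top. With 6 libraries the interval of Hist2h2aa1 (-1.17 to -0.05) alone leaves out 0, and without that replicate those of Hist2h2aa2, Hist2h2aa1 and Hist1h2bp do.

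Hist1h2aa (H2ac1) encodes the H2A form made in the testis, known as TH2A, and shares a promoter region with its H2B partner Hist1h2ba (H2bc1), which was left out of the members. The region is shown because it serves both genes. RefSeq's window for Hist1h2aa (chr13:23934187-23934486, plus strand, GRCm38.p6) is printed with capitals for CCAAT, for TATAAA and for the octamer named above, on either strand.
Hist1h2aa promoter: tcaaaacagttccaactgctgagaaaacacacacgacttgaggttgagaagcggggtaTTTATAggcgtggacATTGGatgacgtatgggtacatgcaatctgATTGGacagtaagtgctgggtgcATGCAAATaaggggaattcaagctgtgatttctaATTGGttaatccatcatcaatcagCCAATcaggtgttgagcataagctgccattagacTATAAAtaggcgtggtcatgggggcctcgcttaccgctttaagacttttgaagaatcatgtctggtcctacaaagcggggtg
A stretch of 220 bases of it lies, on the opposite strand, in the window of Hist1h2ba. Hist1h2aa had 5, 9 and 7 counts in Ccer1-/- libraries, against 1, 15 and 14 counts in Ccer1+/+ libraries. Hist1h2ba had 5, 5.05 and 5.02 counts in Ccer1-/- libraries, against 3, 15.03 and 19 counts in Ccer1+/+ libraries. Both had their lowest value in Ccer1+/+ replicate 1 and their highest values in Ccer1+/+ replicates 2 and 3, and neither passed the filter on low counts with all 6 libraries. Without Ccer1+/+ replicate 1 Hist1h2aa passed it, through its counts in Ccer1+/+ replicates 2 and 3, where it was high. The filter thus favoured a lower level in Ccer1-/-, and the log2 fold change of -1.12 ± 0.48 (95% interval -2.23 to -0.01) is no support for one. That change did not pass the test (adjusted p = 0.135, edgeR).

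The 31 untested members summed to 2.95, 2.91 and 3.46 CPM in Ccer1-/- libraries, against 2.99, 5.68 and 4.77 CPM in Ccer1+/+ libraries. By CPM, 3 of them were lower in every Ccer1-/- library, where 2.64% of the genes with a count that did not pass the filter were so, and none was higher in every one, against 3.56%. The 3 were Hist2h3b, Hist2h2ab and Hist2h4, singled out after their values were seen. Hist2h2ab had 3, 1 and 2 counts in Ccer1-/- and 4, 3 and 6 counts in Ccer1+/+ libraries, and Hist2h4 had 0, 1 and 0 counts in Ccer1-/- and 3, 2 and 1 counts in Ccer1+/+ libraries. By counts Hist2h4 tied at 1 between Ccer1-/- replicate 2 and Ccer1+/+ replicate 3. In these last 2 genes a difference was not detectable at this depth.

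Summed over all 46 genes, the level was 416, 432 and 427 CPM in Ccer1-/- libraries, against 396, 713 and 597 CPM in Ccer1+/+ libraries. The log2 ratio of the means was -0.42, and it lay mainly in the H2A genes. H2A genes summed to 312, 319 and 319 CPM in Ccer1-/- libraries, against 288, 584 and 486 CPM in Ccer1+/+ libraries, a log2 ratio of -0.51. The ratios were -0.10 for the H2B, -0.25 for the H3 and -0.04 for the H4 genes. Without Ccer1+/+ replicate 1, at the same scaling, they were -0.62 for all members, -0.76 for the H2A, -0.13 for the H2B, -0.39 for the H3 and -0.10 for the H4 genes. Without the Hist2h2aa pair the members summed to 110, 118 and 116 CPM in Ccer1-/- libraries, against 114, 137 and 117 CPM in Ccer1+/+ libraries, a log2 ratio of -0.10, or -0.15 without Ccer1+/+ replicate 1. In whole testis, fewer cells of a type and less RNA per cell cannot be told apart in such sums.

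Ccer1+/+ replicate 1 was below both other Ccer1+/+ libraries in 11 of the 15 tested members and above both in 2, where over all 15139 genes tested it was below in 5459 and above in 6548. It fell within the range of the Ccer1-/- libraries in 9 of the 15 members and in 7477 of all 15139 genes tested. Other gene groups moved with the same libraries. Marker genes of elongating spermatids summed to 15294, 15038 and 14003 CPM in Ccer1-/- libraries, against 17032, 23667 and 23461 CPM in Ccer1+/+ libraries, and the list was mixed. Tnp1, Tnp2, Prm1 and Prm2, of the histone-to-protamine exchange, were lower in every Ccer1-/- library, with Ccer1+/+ replicate 1 between the Ccer1-/- and the other Ccer1+/+ values. Akap4, of the flagellum, was higher in every Ccer1-/- library (log2 fold change 0.30 ± 0.12). These were 4 and 1 of the 8 markers, where 3.14% of all genes tested were lower and 5.2% higher in every Ccer1-/- library. None of the 8 was called, with a smallest adjusted p of 0.786 (edgeR), and the other markers overlapped between genotypes. At an unadjusted p under 0.05, edgeR gave 4 lower and 1 higher, where 1.27% of all genes tested were lower and 1.62% higher. Tnp1 had a log2 fold change of -1.73 ± 0.26. The study reports lower Tnp1, Tnp2, Prm1 and Prm2, as transcripts and as proteins. The 13 mitochondrially encoded genes summed to 10548, 9696 and 11240 CPM in Ccer1-/- libraries, against 11151, 5477 and 5238 CPM in Ccer1+/+ libraries. The part of these shifts in the level of the histone genes was not tested.

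Spermatogonial markers, which mark dividing germ cells, summed to 131, 132 and 111 CPM in Ccer1-/- libraries, against 126, 114 and 114 CPM in Ccer1+/+ libraries, and 0 of 8 had an unadjusted p under 0.05. The spermatocyte markers summed to 2184, 2231 and 2318 CPM in Ccer1-/- libraries, against 2258, 2922 and 2983 CPM in Ccer1+/+ libraries, with 4 of 8 fold changes above and 4 below 0. Hspa2 and Piwil1, the 2 lower at an unadjusted p under 0.05 by edgeR, carried most of the sum, and Sycp3, Dmc1 and Sycp1 had log2 fold changes of 0.57 ± 0.41, 0.33 ± 0.23 and 0.33 ± 0.43. Markers of Sertoli, Leydig, peritubular, endothelial and red blood cells and of macrophages gave no gene at an unadjusted p under 0.05 in either direction. Replicate 3 of each genotype was low in some of them. Macrophage markers summed to 68.1, 64.1 and 26.5 CPM in Ccer1-/- libraries, against 65.4, 59.4 and 23.2 CPM in Ccer1+/+ libraries, and peritubular markers to 103, 113 and 33.4 CPM in Ccer1-/- libraries, against 84.8, 136 and 33.5 CPM in Ccer1+/+ libraries.

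**Figure D4:**
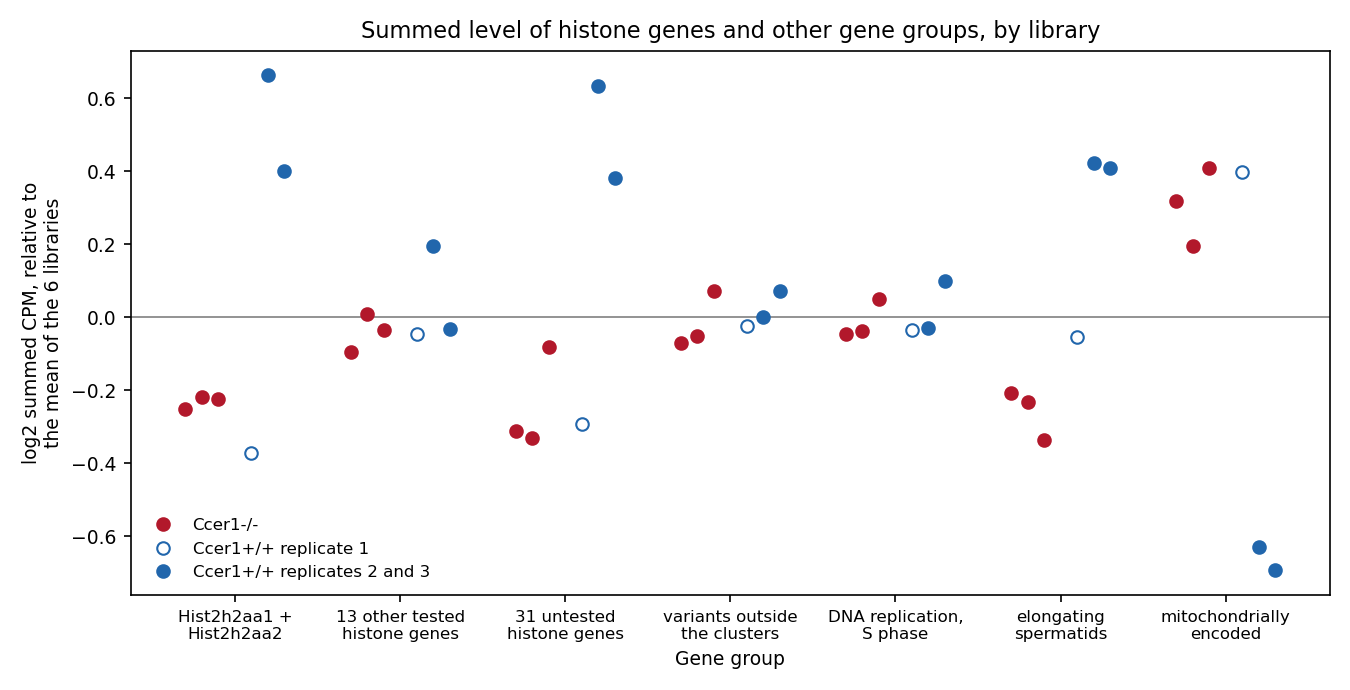
Log2 summed CPM of each gene group in each library, relative to the mean of the 6 libraries, with Ccer1-/- left of Ccer1+/+ and an open circle for Ccer1+/+ replicate 1. The Hist2h2aa pair and the 31 untested members are high in Ccer1+/+ replicates 2 and 3 and low in the other 4 libraries, and the 13 mitochondrially encoded genes are low in the same 2 libraries.

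The genes that act on histone mRNAs and with replicative histones were described in the same fit. Of 21 genes for 3' end processing and turnover of histone mRNA, 12 had a log2 fold change above 0 and 9 below it (median 0.05). None was called, and edgeR gave 0 at an unadjusted p under 0.05. Slbp and Cstf2, 2 of the 21, were higher in every Ccer1-/- library, where 5.2% of all genes tested were. Slbp had 95.8, 101 and 112 CPM in Ccer1-/- libraries, against 95.3, 78.3 and 94.6 CPM in Ccer1+/+ libraries (adjusted p = 0.786, edgeR). Upf1, a helicase needed for histone mRNA decay, had 125, 125 and 122 CPM in Ccer1-/- libraries, against 120, 179 and 186 CPM in Ccer1+/+ libraries (log2 fold change -0.38 ± 0.17, adjusted p = 0.786, edgeR). Lsm10, a subunit of the U7 particle, had 12.0, 13.2 and 13.5 CPM in Ccer1-/- libraries, against 12.0, 23.2 and 19.5 CPM in Ccer1+/+ libraries. Ncbp2, a subunit of the cap-binding complex, ran the other way, with 41.3, 39.98 and 42.5 CPM in Ccer1-/- libraries and 40.4, 24.6 and 28.6 CPM in Ccer1+/+ libraries.

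Of 24 genes of DNA replication and S phase, 13 were positive and 11 negative, with a median log2 fold change of 0.06, and none had an unadjusted p under 0.05 by edgeR. Cdc45, a part of the replicative helicase, had 30.0, 33.2 and 32.9 CPM in Ccer1-/- libraries, against 32.7, 44.2 and 44.7 CPM in Ccer1+/+ libraries. Rrm2, a subunit of ribonucleotide reductase, had 14.3, 16.4 and 15.2 CPM in Ccer1-/- libraries, against 12.96, 11.7 and 13.1 CPM in Ccer1+/+ libraries (adjusted p = 0.786, edgeR). Rrm2 and Cdc6, 2 of the 24, were higher in every Ccer1-/- library, where 5.2% of all genes tested were. In this list 0 genes were lower in every one, where 3.14% of all genes tested were. Prim1, the catalytic subunit of primase, had 7.13, 7.46 and 7.71 CPM in Ccer1-/- libraries and 7.23, 5.06 and 3.98 CPM in Ccer1+/+ libraries. The summed level of the list was 930, 934 and 993 CPM in Ccer1-/- libraries, against 936, 940 and 1028 CPM in Ccer1+/+ libraries, with no gap between genotypes.

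The 10 chaperones and importers of newly made histones had a median log2 fold change of 0.02, with 6 above and 4 below 0, and none was at an unadjusted p under 0.05 by edgeR. Ipo4, an importin that carries H3 and H4, had 635, 649 and 619 CPM in Ccer1-/- libraries, against 600, 937 and 895 CPM in Ccer1+/+ libraries. Tonsl, which binds new H4, had 15.2, 16.02 and 15.3 CPM in Ccer1-/- libraries and 15.4, 21.1 and 23.7 CPM in Ccer1+/+ libraries, and Chaf1a, the large subunit of CAF-1, had 320, 308 and 331 CPM in Ccer1-/- libraries and 311, 402 and 430 CPM in Ccer1+/+ libraries. In these 3 the Ccer1-/- libraries lay beside Ccer1+/+ replicate 1 and below Ccer1+/+ replicates 2 and 3. Asf1a, a chaperone of H3 and H4, had the opposite pattern, with 13.02, 13.4 and 14.7 CPM in Ccer1-/- libraries and 14.5, 6.67 and 7.34 CPM in Ccer1+/+ libraries.

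The list of core histone variant genes outside the clusters held 9 genes, most of which make messages with poly(A) tails. They had a median log2 fold change of -0.07, with 4 above and 5 below 0, and none was at an unadjusted p under 0.05 by edgeR. H2afx, the variant phosphorylated at DNA breaks and on the sex body, had 50.2, 51.0 and 54.5 CPM in Ccer1-/- libraries, against 48.5, 71.0 and 68.6 CPM in Ccer1+/+ libraries. H2afv had 18.2, 21.1 and 21.2 CPM in Ccer1-/- libraries, against 15.9, 37.7 and 27.8 CPM in Ccer1+/+ libraries, and H2afz 302, 297 and 324 CPM in Ccer1-/- libraries, against 259, 421 and 440 CPM in Ccer1+/+ libraries. These 3 H2A variant genes had Ccer1+/+ replicates 2 and 3 above the other 4 libraries, as did the clustered H2A pair. The H3 variant genes H3f3a and H3f3b ran the other way. H3f3a had 275, 284 and 306 CPM in Ccer1-/- libraries, against 304, 213 and 249 CPM in Ccer1+/+ libraries. H3f3b had 354, 359 and 402 CPM in Ccer1-/- libraries, against 411, 293 and 320 CPM in Ccer1+/+ libraries. A list of 18 RNAs without a poly(A) tail, set up as a gauge of the selection step, had no gene matched in the files and gives no value.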

How the data were processed

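RNA-seq of 3 Ccer1-/- and 3 Ccer1+/+ testes was analysed. Per the labels, mRNA was selected with oligo(dT) and copied with random primers. The authors deposited estimated counts per Ensembl gene, 89.5% to 90.1% of them whole, with no scaling applied. Tools listed in the submitters' processing notes are StringTie 1.3.1, HISAT2, Bowtie2 2.2.8 and fastp 0.18.0, with GRCm38 as the build. The sources used here do not give the counting program. Symbols were found for 20314 genes and not for 1945.

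Counts were rounded. In R 4.3.3, edgeR 4.0.16 filtered genes (filterByExpr, minimum count 10, minimum total 15, which kept 15139), scaled libraries by TMM and tested genotype by a robust two-sided quasi-likelihood F test without covariates. P-values were adjusted by Benjamini-Hochberg over the genes tested, with 0.05 as the threshold. Standard errors were derived from F as |log2 fold change|/√F, and 95% intervals from the t distribution. The procedure was run on simulated counts that held no outlying library such as Ccer1+/+ replicate 1. That run does not show how the procedure behaves with one. Nothing in the sources says how many mice or litters lie behind each sample beyond their description as independent, so p-values measure the spread between these samples, and 3 against 3 limits what can pass. Replicate numbers were not taken to pair samples. DESeq2 1.42.0 was an alternative, and the others are listed with their effect in the closing section. Exon lengths and transcript ends come from GENCODE M1 (NCBIM37) by gene ID, gene positions and promoters from RefSeq (GRCm38.p6) by symbol. No coordinates were moved between builds.

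Members and lists were chosen with earlier results of these data known. Named were the 3 members of each histone type with the highest level per kilobase, members with an unadjusted p under 0.05, Hist1h2aa, the tested Hist2 and Hist3 genes, and up to 3 genes with the smallest p of each related list. Slbp, Cstf2, Cdc6, H3f3a and H3f3b were named after their values were seen. Hi-C samples were not analysed here.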

Additional observations from a re-analysis of the deposited data

How the results depend on the processing

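Depth limits the low members: the 95% interval of Hist2h2ac, at 0.674 CPM, ran from -1.11 to 0.89. Leaving out 1 library in turn gave 1 to 3337 calls over all genes, 0 to 2 calls among the members, a median log2 fold change of the members of -0.34 to -0.0345 and a log2 ratio of their summed level, with scaling refitted, of -0.69 to -0.28. The highest counts of calls and the lowest median and ratio came without Ccer1+/+ replicate 1, where Hist2h2aa2 had a log2 fold change of -0.79 and Hist2h2aa1 of -0.94. DESeq2's test called 5 genes over all genes, 1 higher and 4 lower in Ccer1-/-, and no member. With the replicate number as a block, edgeR called 1 gene and no member, with a median of the members of -0.10. The numbers are not known to pair the samples: same-numbered libraries deviated from their group means with correlations of 0.07, 0.40 and 0.50, and not all exceeded 0.1. The counts of Hist2h2aa1 and Hist2h2aa2, whose transcripts are identical, were also added before the fit. So were those of Hist2h3b and Hist2h3c2, whose sequences were not compared. With both additions, chosen after the data were seen, there were 0 calls among the members and a median of -0.08.

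Some log2 fold changes close to 0 changed sign, and none of them was called. Hist1h4h gave -0.0103 with DESeq2 size factors, -0.0167 with DESeq2's test, -0.0108 with a minimum of 10 counts per library and -0.34 to 0.18 with 1 library left out. Hist1h2ag gave 0.0151 with library totals, 0.043 with the replicate block and -0.39 to 0.47 with 1 library left out. Likewise with 1 library left out, Hist2h2ac gave -0.40 to 0.0761, Hist1h3a -0.30 to 0.00265, Hist3h2a -0.0196 to 0.29, Hist1h2bc -0.22 to 0.155 and Hist2h3c2 -0.52 to 0.084. Without changing sign, Hist2h2be ran from 0.0249 to 0.34, Hist1h4c from 0.0311 to 0.54 and Hist3h2ba from -1.15 to -0.41 with 1 library left out. Of all values of named members, 171 kept their direction and their side of the threshold.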
